A study of Drosophila melanogaster with 8 samples.

Results

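Neuronal activity-regulated genes are genes whose transcription is switched on within neurons shortly after electrical activity. Calcium and cyclic AMP signals reach the nucleus through kinases such as MAPK/ERK and through the factor CREB, and a first wave of genes, many of them transcription factors, is then transcribed without new protein synthesis. The best known of these are relatives of the mammalian genes Egr1, Nr4a1, Fos and Arc, and they are widely used as markers of recently active neurons and studied in learning and memory. The 9 Drosophila genes described here were listed by name, and the list was chosen with earlier results of these data known. They are sr and Hr38, the fly Egr and Nr4a relatives; Arc1 and Arc2; kay and Jra, the fly Fos and Jun; puc; cbt; and CrebA. Of them, 8 were measured, by 11 of the 18769 probe sets tested (a probe set is a group of short array probes summarised as 1 value), and the whole array named 11982 genes by a probe set of their own. No probe set carried CrebA as its only gene symbol, so CrebA was not analysed here.

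The values came from 8 Affymetrix arrays, 2 in each of 4 groups. Control flies carried UAS-mCD8-GFP and the OK-107 GAL4 driver. The dTip60E431Q flies carried the same reporter and driver and also a UAS transgene for Tip60 with a defective histone acetyltransferase (HAT), so that GFP and driver were shared by all groups and endogenous Tip60 was present throughout. Newly eclosed flies of both genotypes were kept for 5 days either 30 to a vial with equal sexes (environmental enrichment, EE) or 1 to a vial (isolation, ISO), and they were 5 days old, except that the labels give 6 days for dTip60E431Q ISO replicate 2. Brains of male and female flies were pooled and dissociated with trypsin, and GFP-positive cells were sorted by FACS. The study asked whether EE changes transcription in the mushroom body (MB), the fly centre of olfactory memory, and whether this depends on Tip60 HAT action.

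The labels name the cells Kenyon neurons (the intrinsic cells of the MB), although the study's text also places OK-107 expression in other brain areas. All 17 measured Kenyon neuron markers and all 10 pan-neuronal markers had mean signals at or above the median of probe set means (6.46 on the log2 scale), and so did 14 of 15 glia markers, 12 of 12 muscle markers, 11 of 13 fat body markers and 11 of 14 hemocyte markers. In such bulk samples, fewer cells of a type and less RNA per cell cannot be told apart. Tip60 itself, the check of genotype, had log2 signals of 8.07 to 8.41 on the control arrays and 9.64 to 10.14 on the dTip60E431Q arrays, without separating transgene from endogenous mRNA and without checking housing. Array medians lay between 6.42 and 6.50. The difference between the arrays of a pair had an SD over probe sets of 0.183 in dTip60E431Q ISO against 0.358 to 0.479 in the other groups. Neither the labels nor the study's methods say that paired arrays came from separate pools of flies. Each p-value therefore reflects only how far these arrays differ, and that spread may be technical.

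A member was called changed when the Benjamini-Hochberg adjusted p of limma, over all probe sets, was under 0.05 and the fold at least 1.3. Because a group held only 2 arrays, members that reach this fold with p under 0.05 before adjustment are also given, as past the unadjusted threshold. Whether the arrays of groups overlapped is given as description only. With 2 arrays against 2, separation is common without any difference, and its share over all probe sets was not counted.

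**Figure D1:**
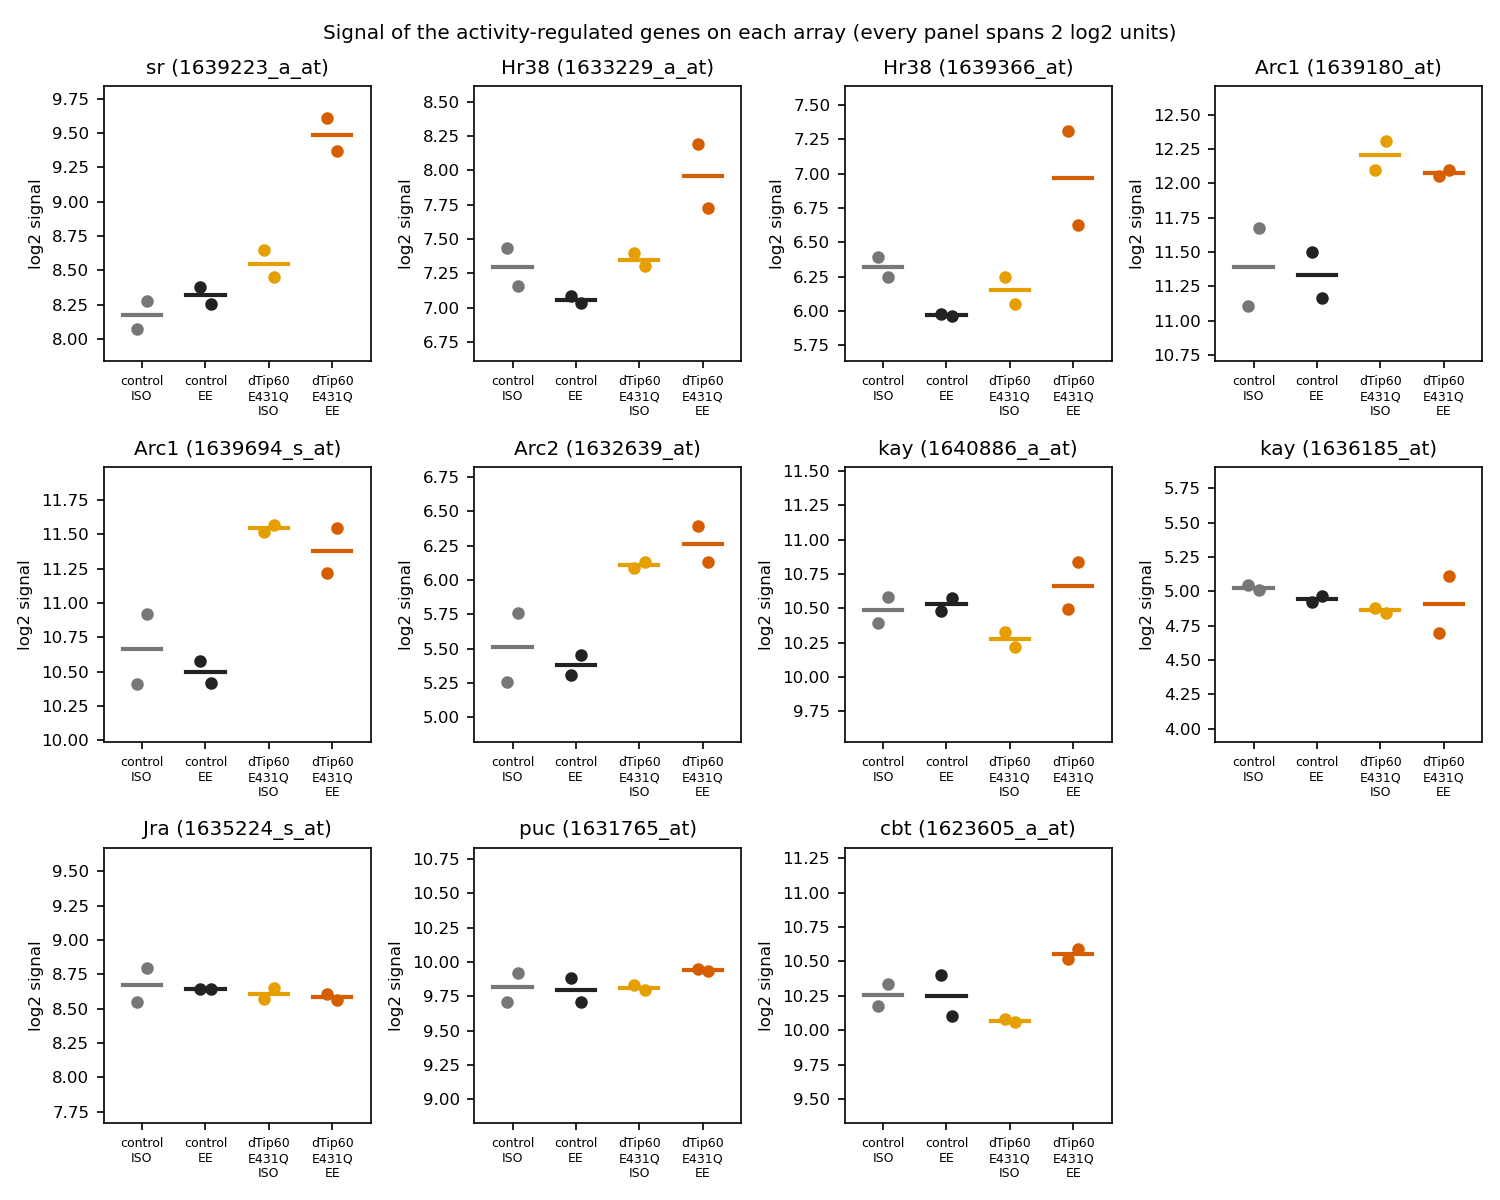
Log2 signal of the 11 probe sets of the 8 measured genes on each of the 8 arrays; points are arrays (replicate 1 on the left of each pair), lines are group means, and every panel spans the same log2 range around its own centre. The sr, Hr38 and cbt points of dTip60E431Q EE lie above all other arrays, while Arc1 and Arc2 are high in both dTip60E431Q groups and Jra and puc vary little.

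The transcription factor genes sr and Hr38 were highest in dTip60E431Q flies after EE. Stripe (sr) is a zinc finger protein of the Egr family, best known in the fly for specifying the tendon cells to which muscles attach. Its log2 signal was 8.08 and 8.28 in control ISO, 8.38 and 8.26 in control EE, 8.65 and 8.45 in dTip60E431Q ISO, and 9.61 and 9.37 in dTip60E431Q EE. Both dTip60E431Q EE arrays exceeded the other 6 arrays, which lay between 8.08 and 8.65. Among those 6, both dTip60E431Q ISO arrays were above all control arrays. The means were 8.18 ± 0.14, 8.32 ± 0.086, 8.55 ± 0.14 and 9.49 ± 0.17 in that order (SD, n = 2 arrays).

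Under EE, sr was 2.25-fold higher in dTip60E431Q than in control, a log2 difference of 1.17 (SE 0.14, 95% interval 0.84 to 1.50, limma adjusted p = 0.0468). It was the 1 member probe set of 11 called in this comparison, in which 0.181% of all probe sets were called in either direction. This call stood close to the threshold. Over 18 alternatives the log2 difference of sr ranged from 1.05 to 1.29 and the unadjusted p stayed under 0.05 in all 18, while the call was kept in 6 and lost in 12. It was lost when either array of control EE (adjusted p = 0.267 and 0.255), of dTip60E431Q ISO (adjusted p = 0.171 for each) or of dTip60E431Q EE (adjusted p = 0.221 and 0.108) was left out, and kept without either control ISO array (adjusted p = 0.0394 for each).

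Within dTip60E431Q, the EE arrays exceeded the ISO arrays by 0.94 for sr (SE 0.14, 95% interval 0.61 to 1.27, unadjusted p = 0.000291, limma adjusted p = 0.0627). The limma call was made without either control ISO array (adjusted p = 0.0415 for each), arrays that serve here only to estimate the spread. Within control flies the same difference was 0.14 (SE 0.14, 95% interval -0.19 to 0.48), and the values of EE and ISO overlapped. The interaction, the EE minus ISO difference in dTip60E431Q minus that in control, was 0.80 (SE 0.20, unadjusted p = 0.00517, limma adjusted p = 0.213). Under ISO sr was 0.37 higher in dTip60E431Q than in control (SE 0.14, unadjusted p = 0.0332, adjusted p = 0.334), without overlap but just under the fold required.

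Hr38 encodes the single Nr4a-type nuclear receptor of the fly. On its brighter probe set (1633229_a_at) the log2 signal was 7.43 and 7.16 in control ISO, 7.08 and 7.03 in control EE, 7.39 and 7.30 in dTip60E431Q ISO, and 8.19 and 7.73 in dTip60E431Q EE. On 1639366_at, whose mean lay below the median of probe set means, the signals were 6.40, 6.24, 5.97, 5.96, 6.25, 6.05, 7.31 and 6.62 in the same order. On both probe sets the dTip60E431Q EE arrays were the highest and the control EE arrays the lowest of the 8, and within dTip60E431Q EE replicate 1 was higher than replicate 2.

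Under EE, Hr38 was higher in dTip60E431Q than in control by 0.90 (SE 0.18, 95% interval 0.49 to 1.32) and 1.00 (SE 0.22, 95% interval 0.48 to 1.52) on the log2 scale, with limma adjusted p = 0.22 and 0.282. Within dTip60E431Q it was higher after EE than after ISO by 0.61 (SE 0.18, unadjusted p = 0.0103, limma adjusted p = 0.396) and 0.82 (SE 0.22, unadjusted p = 0.00735, limma adjusted p = 0.342). On 1633229_a_at this difference was 0.57 without dTip60E431Q ISO replicate 2 (unadjusted p = 0.0546) and 0.38 without dTip60E431Q EE replicate 1 (unadjusted p = 0.054), each just short of the unadjusted threshold. On 1639366_at, leaving out dTip60E431Q EE replicate 1 lowered it to 0.47 (unadjusted p = 0.0192) and the genotype difference under EE to 0.65 (unadjusted p = 0.00485). In control flies the EE arrays were below the ISO arrays on both probe sets, with differences of -0.24 (95% interval -0.65 to 0.18) and -0.35 (95% interval -0.87 to 0.17), and neither passed the test. The interaction was 0.85 (SE 0.25, unadjusted p = 0.0112, limma adjusted p = 0.289) and 1.17 (SE 0.31, unadjusted p = 0.00697, limma adjusted p = 0.238). Without dTip60E431Q EE replicate 2, the interaction on 1639366_at was called (adjusted p = 0.0483). Under ISO the genotypes overlapped on both probe sets, with differences of 0.05 and -0.17.

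Cabut (cbt) is a zinc finger transcription factor of the TIEG family that acts downstream of the JNK pathway in the closure of the embryonic epidermis. Its log2 signal was 10.17 and 10.34 in control ISO, 10.40 and 10.10 in control EE, 10.08 and 10.06 in dTip60E431Q ISO, and 10.52 and 10.59 in dTip60E431Q EE. The dTip60E431Q EE arrays were again above the other 6, and the dTip60E431Q ISO arrays below them. The difference between EE and ISO in dTip60E431Q was 0.49 (SE 0.13, 95% interval 0.17 to 0.80, unadjusted p = 0.00801, limma adjusted p = 0.354), that in control was 0.00 (95% interval -0.32 to 0.31), and the interaction was 0.49 (SE 0.19, unadjusted p = 0.0345, limma adjusted p = 0.423). The interaction lost the unadjusted threshold when any array but control ISO replicate 1 or control EE replicate 1 was left out, at 0.34 without control EE replicate 2 and 0.41 to 0.53 without the others. Under EE cbt was 0.30 higher in dTip60E431Q than in control (SE 0.13, unadjusted p = 0.0554), which became 0.45 without control EE replicate 1 (unadjusted p = 0.0207, past the unadjusted threshold) and 0.16 without control EE replicate 2 (unadjusted p = 0.324).

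**Figure D2:**
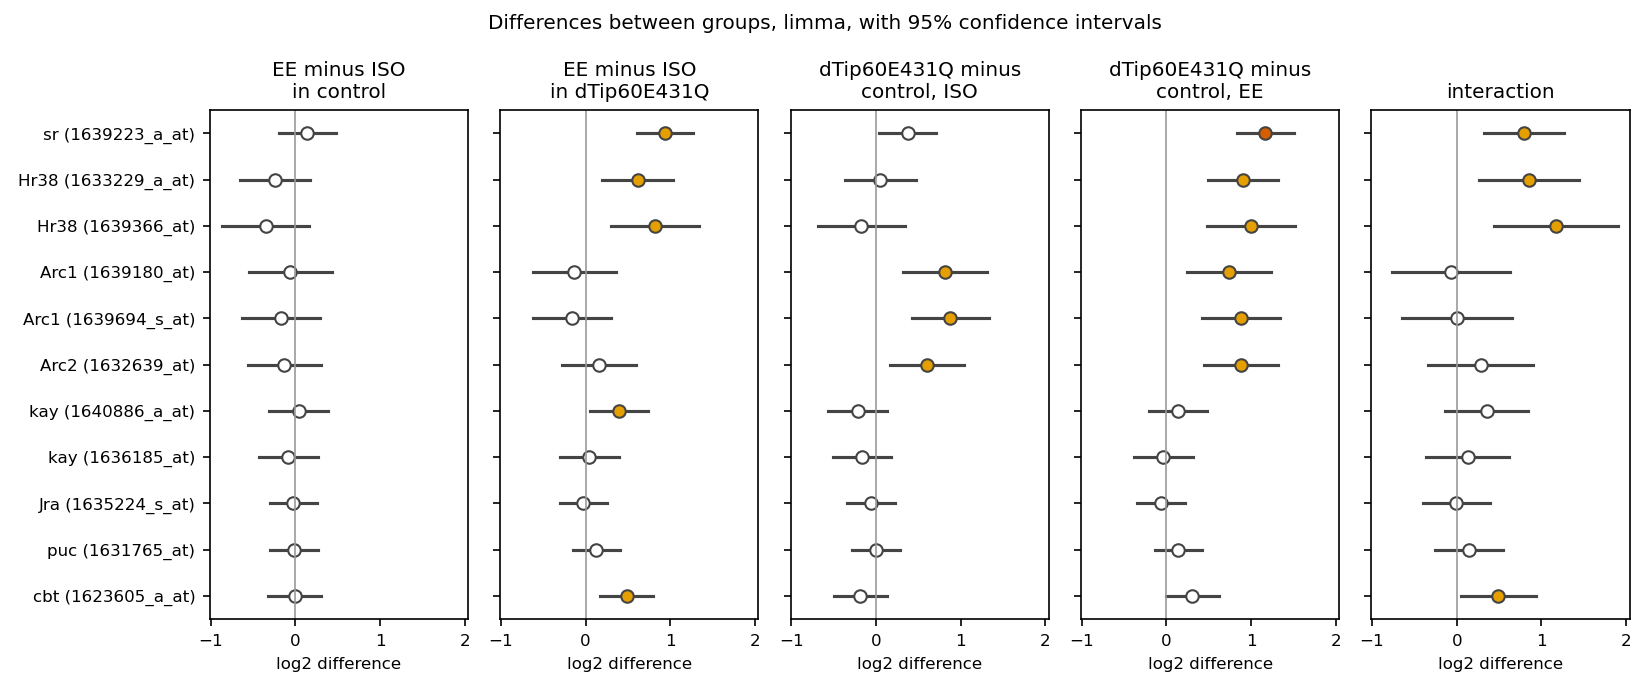
Log2 differences of the 11 probe sets in the 4 comparisons of groups and the interaction of genotype and housing, with 95% confidence intervals from limma; the dark filled point passed the adjusted threshold, light filled points passed only the unadjusted threshold and open points neither. No member passed for EE in control, sr, Hr38, cbt and 1 kay probe set passed the unadjusted threshold for EE in dTip60E431Q, and Arc1 and Arc2 passed it between genotypes in both housings.

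Arc1 and Arc2 were higher in dTip60E431Q than in control in both housings, while no difference with EE passed the test. Both genes derive from the gag part of a retrotransposon. Arc1 protein assembles capsid-like particles that carry its own mRNA across the fly neuromuscular junction. On probe set 1639180_at the log2 signal of Arc1 was 11.11 and 11.67 in control ISO, 11.50 and 11.17 in control EE, 12.10 and 12.31 in dTip60E431Q ISO, and 12.05 and 12.09 in dTip60E431Q EE. On 1639694_s_at it was 10.41, 10.92, 10.58, 10.42, 11.52, 11.57, 11.22 and 11.54 in the same order. All 4 dTip60E431Q arrays lay above all 4 control arrays on both probe sets. Arc2, on a probe set whose mean lay below the median (1632639_at), had signals of 5.25 and 5.76 in control ISO, 5.31 and 5.45 in control EE, 6.08 and 6.13 in dTip60E431Q ISO, and 6.39 and 6.13 in dTip60E431Q EE. Here too the genotypes did not overlap.

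Under ISO, dTip60E431Q exceeded control by 0.81 (SE 0.21, limma adjusted p = 0.173) and 0.88 (SE 0.19, adjusted p = 0.127) for Arc1 and by 0.60 (SE 0.18, adjusted p = 0.235) for Arc2. Under EE, on other arrays, the differences were 0.74 (SE 0.21, adjusted p = 0.44) and 0.88 (SE 0.19, adjusted p = 0.282) for Arc1 and 0.88 (SE 0.18, adjusted p = 0.257) for Arc2. Each of these 6 differences passed the unadjusted threshold and none was called after adjustment. Without control ISO replicate 2, which left 1 array in that group, the 3 differences under ISO were 0.85 to 1.13. Without control ISO replicate 1 those of Arc1 were 0.53 and 0.62, still past the unadjusted threshold (adjusted p = 0.369 and 0.268). For Arc2 the ISO difference fell short of the unadjusted threshold without control ISO replicate 1 (0.35, unadjusted p = 0.0666) and without dTip60E431Q ISO replicate 2 (0.58, unadjusted p = 0.0613), and for Arc1 on 1639180_at the EE difference did so without control EE replicate 2 (0.58, unadjusted p = 0.0625).

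Over both housings, a comparison of 4 arrays with 4 that was added after these values had been seen, the genotype difference was 0.78 (SE 0.15, limma adjusted p = 0.112) and 0.88 (SE 0.14, adjusted p = 0.0593) for Arc1, 0.74 (SE 0.13, adjusted p = 0.0891) for Arc2 and 0.77 (SE 0.099, adjusted p = 0.0283) for sr. sr was the 1 member probe set called, where 0.538% of all probe sets were called, and 6 of 11 passed the unadjusted threshold upward (Hr38 by 0.48 and 0.41), where 2.25% of all did. An exact permutation test over the 8 arrays, with splits that ignored housing, gave p = 0.0286 (two-sided) for sr, for both Arc1 probe sets and for Arc2. This is the smallest p that 70 splits allow. These probe sets had already been seen to separate the genotypes, so that p was fixed beforehand and adds no support. The Hr38 differences over both housings were 0.36 and 0.24 without dTip60E431Q EE replicate 1, under the fold required. On 1639366_at that difference also lost the unadjusted threshold without control ISO replicate 2, either control EE array or dTip60E431Q ISO replicate 1 (0.36 to 0.42). For Hr38 the same exact test gave p = 0.0857 and 0.2, and for the other members at least 0.314. The sr call was lost when either array of control EE, dTip60E431Q ISO or dTip60E431Q EE was left out (adjusted p between 0.0602 and 0.188), and with the dTip60E431Q ISO pair averaged as 1 sample (adjusted p = 0.17). Without control ISO replicate 1 the differences over both housings were 0.63 and 0.75 for Arc1 and 0.61 for Arc2. Without control ISO replicate 2 they were 0.92, 1.01 and 0.87 in the same order.

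Between EE and ISO, Arc1 differed by -0.13 (95% interval -0.62 to 0.36) and -0.16 (95% interval -0.62 to 0.29) in dTip60E431Q and Arc2 by 0.15 (95% interval -0.28 to 0.59). In control these differences were -0.06, -0.17 and -0.13. Without control ISO replicate 1, Arc1 on 1639694_s_at and Arc2 passed the unadjusted threshold downward in control, at -0.42 (unadjusted p = 0.0462) and -0.38 (unadjusted p = 0.0481). Without control ISO replicate 2 the sign turned, to 0.22 and 0.09 for Arc1 and 0.13 for Arc2, none of them past the threshold.

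Arc1 and Arc2 are direct neighbours on chromosome arm 2R in the RefSeq gene order. The 11 measured genes among the 8 on each side of Arc1, Arc2 left out, had genotype differences over both housings of -0.23 to 0.18, and 0 of them had an unadjusted limma p under 0.05. Of the 10 measured neighbours of sr, on 3R, the differences over both housings were -0.16 to 0.26 and 1 had a p under 0.05. Around Hr38, on 2L, 16 measured neighbours differed over both housings by -0.16 to 0.54, and 2 had a p under 0.05, CG9316 (0.24) and CarT (0.54), the latter a larger difference than that of Hr38 itself. Under EE alone these neighbours differed by -0.32 to 0.10, with 0 under that p, and under ISO by -0.16 to 0.99, with 2. Arc1 and Arc2 are related in sequence, and whether their probes also bind the other transcript was not tested.

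**Figure D3:**
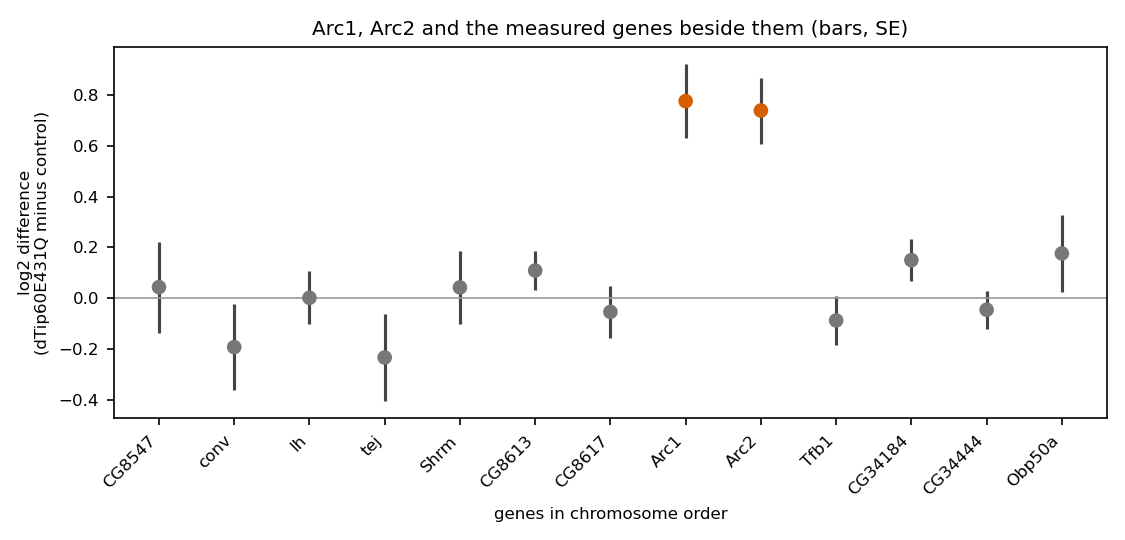
Log2 difference between dTip60E431Q and control over both housings for Arc1 (probe set 1639180_at), Arc2 and the 11 measured genes beside them in chromosome order, with the SE as bars. Arc1 and Arc2 stand at 0.78 and 0.74, and the neighbours lie between -0.23 and 0.18.

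The remaining members belong to AP-1 and its regulation. Kayak (kay) and Jun-related antigen (Jra) form the AP-1 dimer, which the kinase JNK activates, and puckered (puc) encodes a JNK phosphatase that is transcribed in response to JNK and limits it. On 1640886_a_at, kay had log2 signals of 10.40 and 10.58 in control ISO, 10.48 and 10.58 in control EE, 10.33 and 10.22 in dTip60E431Q ISO, and 10.49 and 10.84 in dTip60E431Q EE. The dTip60E431Q ISO arrays were the lowest of the 8, and only replicate 2 of dTip60E431Q EE stood above the control arrays. Between EE and ISO in dTip60E431Q the difference was 0.39 (SE 0.15, 95% interval 0.05 to 0.74, unadjusted p = 0.0318, limma adjusted p = 0.553). It missed the unadjusted threshold without dTip60E431Q ISO replicate 1 (0.44), dTip60E431Q ISO replicate 2 (0.34) or dTip60E431Q EE replicate 2 (0.22). The interaction was 0.35 (unadjusted p = 0.132) and passed the unadjusted threshold only without dTip60E431Q EE replicate 1, at 0.52. The dimmer kay probe set 1636185_at ranged from 4.70 to 5.11 and differed by at most 0.17 in size in the 4 comparisons of groups, so the probe sets of kay did not show the same differences.

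Jra varied from 8.55 to 8.79 over the 8 arrays, both extremes being control ISO arrays. Its differences were -0.02 and -0.03 between EE and ISO in control and dTip60E431Q and -0.06 between genotypes in each housing, with 95% intervals that reached no further than -0.34 and 0.26. Puc varied from 9.71 to 9.95. It differed by -0.02 (95% interval -0.30 to 0.26) between EE and ISO in control, by 0.13 (95% interval -0.15 to 0.41) in dTip60E431Q, by 0.00 between genotypes under ISO and by 0.14 (95% interval -0.14 to 0.42) under EE. Neither gene passed the unadjusted threshold in any comparison of groups.

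By comparison, the members divided as follows. For EE minus ISO in control, 0 of 11 member probe sets were called (0.0906% of all probe sets were) and 0 passed the unadjusted threshold upward (2.38% of all did). In dTip60E431Q, 0 were called (0.448% of all) and 5 passed the unadjusted threshold upward (2.69% of all), namely sr, both of Hr38, cbt and 1 of kay. For dTip60E431Q minus control, 0 were called under ISO (0.799% of all) and 3 passed the unadjusted threshold upward (5.24% of all), namely Arc1 and Arc2. Under EE, 1 was called and 6 passed the unadjusted threshold upward (2.43% of all), namely sr, Hr38, Arc1 and Arc2. For the interaction, 0 were called (0.671% of all) and 4 passed the unadjusted threshold upward (5.00% of all), namely sr, Hr38 and cbt. No member passed it downward in any of these, where 2.03%, 3.47%, 4.9%, 2.66% and 5.19% of all probe sets did, in the same order. With 11 member probe sets, 0 is near those shares. The median member difference was 0.74 between genotypes under EE (0.03 over all probe sets), 0.00 under ISO (0.00 over all), 0.15 for EE in dTip60E431Q (0.01 over all), -0.06 for EE in control (-0.02 over all) and 0.28 for the interaction (0.03 over all). The dTip60E431Q EE arrays are shared by these comparisons, and each group by the interaction, so their results are not separate evidence. Probe sets of 1 gene share its transcript and are not replicates.

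The pattern most like that of sr was that of Hr38, by a small margin and not in the other direction. Among 7024 genes with a mean at or above the median, the root mean square difference of centred values over the 8 arrays was smallest for Hr38 (0.267), followed by Ir76a (0.277), LpR1 (0.28) and Dad (0.29), with 0.295 for the next gene. Ir76a encodes an ionotropic receptor, LpR1 a lipophorin receptor and Dad an inhibitory Smad of BMP signalling. For Hr38 the nearest were CG13999 (0.158), Mkp3, a phosphatase that inactivates ERK (0.175), CG14186 (0.18) and Rab3, a synaptic vesicle GTPase (0.182), with 0.186 for the next gene. At 0.267 from Hr38, sr was not among its nearest genes. All share the 8 arrays, so these are descriptions without a test.

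**Figure D4:**
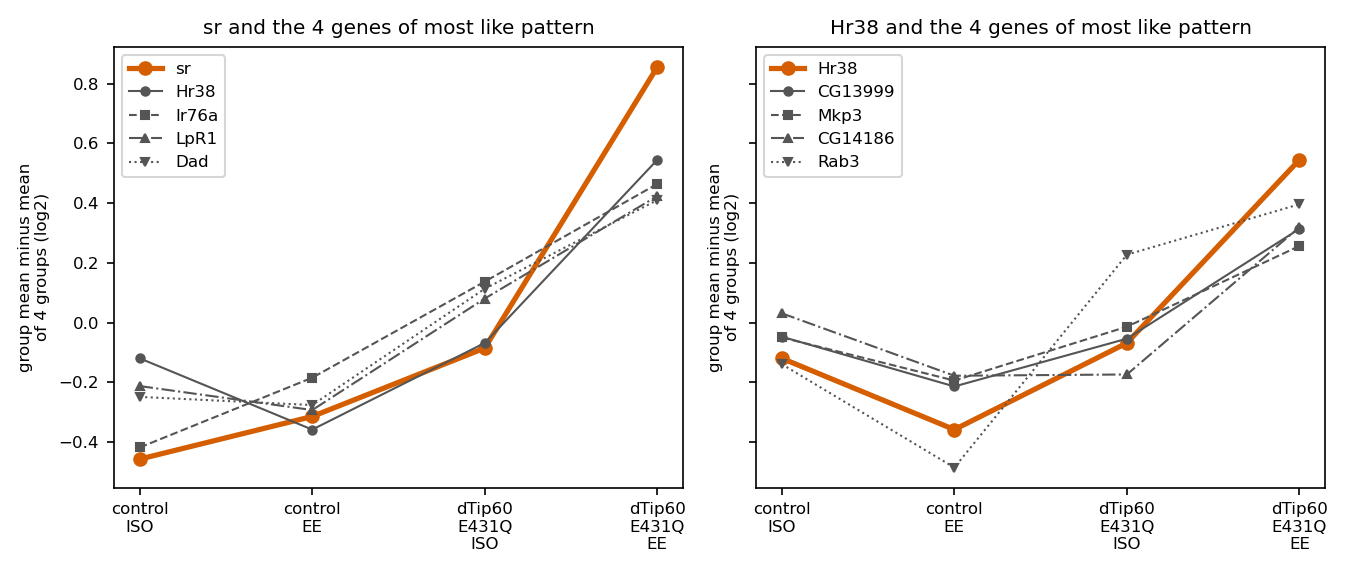
Group means of sr and Hr38 (thick lines) and of the 4 genes with the most similar values over 8 arrays, each minus the mean of its 4 groups, on the log2 scale. In every gene shown dTip60E431Q EE is the highest group, and the step from dTip60E431Q ISO to EE is larger for sr (0.94) than for the genes beside it.

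Of other genes known to respond to neuronal activity, 11 were measured and none was called. For EE in dTip60E431Q, 2 passed the unadjusted threshold upward (2.69% of all probe sets did), CG14186 by 0.49 (SE 0.14, limma adjusted p = 0.384) and CG8910 by 0.38 (SE 0.15, adjusted p = 0.568), and their list median was -0.01 against 0.01 for all probe sets. The same 2 passed it between genotypes under EE (2.43% of all did), at 0.50 (adjusted p = 0.44) and 0.41 (adjusted p = 0.598). The clock gene per differed by -0.77 between EE and ISO in control (SE 0.11, adjusted p = 0.116). It was the 1 gene of this list past the unadjusted threshold there, where 2.03% of all probe sets passed downward. Between genotypes under ISO 2 passed downward (4.9% of all probe sets did). These were per at -0.60 (adjusted p = 0.0774) and Adgf-A, an adenosine deaminase, at -1.41 (adjusted p = 0.159). For the interaction 3 passed upward (5.00% of all probe sets did), per at 0.68, CG14186 at 0.70 and CG8910 at 0.58, and the list median was 0.23 against 0.03 for all.

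Of 14 JNK pathway genes, 0 passed the unadjusted threshold between genotypes under EE. For EE in dTip60E431Q, 2 passed upward (2.69% of all probe sets did) and 1 downward (3.47% of all), with a list median of 0.09 (0.01 over all). The stress-induced bZIP factor Atf3 was higher by 0.61 (SE 0.13, adjusted p = 0.227), the kinase slpr by 0.45 (SE 0.15, adjusted p = 0.497), and the TNF ligand egr differed by -0.47 (SE 0.16, adjusted p = 0.519). Between genotypes under ISO, on the same dTip60E431Q ISO arrays, the differences of these genes had the opposite signs, -0.68 for Atf3 (adjusted p = 0.0998), -0.45 for slpr (adjusted p = 0.275) and 0.55 for egr (adjusted p = 0.221). Of 10 MAPK/ERK genes, 1 passed upward between genotypes under EE (2.43% of all), Mkp3 by 0.40 (SE 0.16, adjusted p = 0.643). Of 15 calcium, cAMP and CREB pathway genes, 1 passed upward for EE in dTip60E431Q (2.69% of all), the kinase Sik3 by 0.39 (SE 0.13, adjusted p = 0.488). Of 13 partners or relatives of the nuclear receptor and zinc finger members, 1 passed downward for EE in dTip60E431Q (3.47% of all). This was klu, a zinc finger factor related to WT1, at -0.63 (SE 0.15, adjusted p = 0.261). It also passed downward between genotypes under EE (2.66% of all) at -0.74 (SE 0.15, adjusted p = 0.22), and upward for EE in control (2.38% of all) at 0.49 (adjusted p = 0.64). Under ISO between genotypes, CanA1, a calcineurin subunit, passed downward (4.9% of all) at -0.87 (adjusted p = 0.306) and ple, tyrosine hydroxylase, upward (5.24% of all) at 0.39 (adjusted p = 0.356). None of these genes was called after adjustment. In lists this short, 1 pass does not set a pathway apart from those shares.

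Markers of other tissues varied beside the members. Muscle markers, relevant beside sr because of its tendon role, had mean log2 signals of 10.15 and 10.43 in control ISO, 9.89 and 10.28 in control EE, 9.93 and 9.92 in dTip60E431Q ISO, and 9.96 and 10.79 in dTip60E431Q EE. Within dTip60E431Q EE the markers were higher on replicate 2, as were kay, Arc1 and cbt on all their probe sets, while sr, Hr38, Arc2, Jra and puc were higher on replicate 1. Of 12 muscle markers, 4 passed the unadjusted threshold upward for EE in dTip60E431Q (median 0.51), where 2.69% of all probe sets did. Between genotypes their median was -0.53 under ISO, where sr was 0.37 higher in dTip60E431Q. The list was split there, with 3 of 12 past the unadjusted threshold downward (4.9% of all) and 1 upward (5.24% of all). The 1 upward was the actin gene Act88F, higher in dTip60E431Q by 1.44 (SE 0.58, limma adjusted p = 0.364). Under EE, where sr was 1.17 higher, the median of the muscle markers was 0.13. There 1 of 12 passed the threshold upward (2.43% of all), again Act88F, by 1.70 (SE 0.58, adjusted p = 0.567).

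Fat body markers had means of 9.18 to 9.48 in control ISO and 9.33 to 9.80 in dTip60E431Q EE against 10.78 to 10.82 in the other groups, and hemocyte markers 7.38 to 7.57 and 7.59 to 7.78 against 7.81 to 8.06. Both lists were thus low in dTip60E431Q EE, where sr, Hr38 and cbt were high. They were also low in control ISO, where Hr38 exceeded control EE on both probe sets without overlap and sr and cbt overlapped it. Glia markers were higher in dTip60E431Q for 12 of 15 over both housings (median 0.09), as were 53.2% of all probe sets. After EE in dTip60E431Q, 2 of 15 were higher (median -0.20), where 52.4% of all were. The interaction was above 0 for 0 of 15 (median -0.12), where it was for 54.8% of all. Glia marker means were 9.80 to 9.86 on control arrays and 9.86 to 10.05 on dTip60E431Q arrays. Heat shock genes had means of 10.28 and 11.87 in control ISO, 10.38 to 10.72 in control EE and dTip60E431Q ISO, and 10.28 and 11.15 in dTip60E431Q EE, high on 1 array of each of those pairs. Stress and damage response genes had means of 7.80 to 8.15 on the other arrays and of 8.17 to 8.43 in dTip60E431Q EE, ranges that nearly touched. Of these 12 genes, 0 passed the unadjusted threshold between genotypes under EE. For EE in dTip60E431Q, 1 passed upward (2.69% of all). Kenyon neuron markers had median differences of -0.02 between genotypes under EE (6 of 17 above 0, 57.0% of all probe sets) and -0.15 under ISO (2 of 17, 49.3% of all). The medians were -0.09 over both housings (5 of 17, 53.2% of all) and 0.09 for EE in dTip60E431Q (15 of 17, 52.4% of all). What part these differences in other genes have in the values of sr, Hr38, cbt, Arc1 and Arc2 was not tested.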

How the data were processed

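The authors hybridised RNA of sorted cells to Affymetrix Drosophila arrays and deposited log2 values made with RMA in R, which corrects background, quantile normalizes and summarises each probe set; its version was not given in the sources. The log2 values were used as deposited, from 1.60 to 13.77, after 183 Affymetrix control probe sets were left out. Precision is limited by the number of arrays. Of 18769 probe sets, 13647 had 1 gene symbol in the platform annotation, 402 several and 4720 none; updating through gene IDs changed 0 symbols. A RefSeq gene table gave gene order only, and no coordinates are given because the files name no build.

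Group means were fitted in limma 3.58.1 (R 4.3.3), with 1 variance per probe set estimated from all 8 arrays (4 residual and 2.91 prior degrees of freedom), Benjamini-Hochberg adjustment over all probe sets and no filter on signal. The methods' fold of 1.3 was kept, and their t-test was run as an alternative. On simulated arrays for dTip60E431Q against control under EE (18769 probe sets), 59 of 100 probe sets changed 2-fold, 96 of 100 changed 4-fold and 10 of 18569 unchanged were called; at the unadjusted threshold these were 94, 99 and 524. Alternatives were cyclic loess, repeated quantile normalization, array weights, a replicate block, robust moderation with a mean-variance trend, fits to only the groups compared, a fold of 1.1, a single probe set per gene, omission of low signal, the most similar pair averaged, and each array left out, whose partner is then assumed to vary like the other groups.

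Members are all given. Other genes named are up to 3 per list by smallest unadjusted p, and the 4 genes most like sr and Hr38; a gene with several probe sets stands in a list by its brightest. Members and lists were chosen with earlier results of these data known. The genotype comparison over both housings and the neighbouring genes were added after the values were seen. Other experiments of the study were not analysed here.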

Additional observations from a re-analysis of the deposited data

Results flagged for a closer look

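In 4 cases the difference between EE and ISO was not the same in dTip60E431Q as in control by a limma test of the interaction at an unadjusted p under 0.05, and in none after adjustment over all probe sets. The interaction was 0.80 for sr (limma adjusted p = 0.213), 0.85 for Hr38 on 1633229_a_at (adjusted p = 0.289), 1.17 for Hr38 on 1639366_at (adjusted p = 0.238) and 0.49 for cbt (adjusted p = 0.423), each with EE minus ISO larger in dTip60E431Q. In all 4 cases, the dTip60E431Q EE arrays lay above the dTip60E431Q ISO arrays. Between EE and ISO in control, sr and cbt overlapped, and both Hr38 probe sets lay in the opposite order without overlap. Such separation of 2 arrays from 2 is common without any difference and is no test. Groups of 2 arrays are too small to look for single outlying arrays.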

How the results depend on the processing

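In the 5 comparisons other than that over both housings, member differences past a threshold reversed under none of the 18 alternatives, and sign changes occurred in 33 of 632 recomputed differences that had passed neither threshold, all with a reported size of at most 0.167. The call of sr between genotypes under EE was lost, leaving 0 members called, with cyclic loess, only the groups compared, 1 probe set per gene, the methods' t-test after adjustment, the dTip60E431Q ISO pair averaged as 1 sample, and the replicate block. For EE minus ISO in dTip60E431Q, 1 member (sr) was called with array weights and with the mean-variance trend with robust moderation, and 2 members instead of 5 passed the methods' t-test without adjustment. Between genotypes under ISO, 0 members instead of 3 passed that t-test.

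When each array was left out in turn, the count of members called ranged from 0 to 1 for EE minus ISO in dTip60E431Q, from 0 to 3 between genotypes under ISO, from 0 to 1 under EE and from 0 to 1 for the interaction. The count past the unadjusted threshold ranged from 0 to 2 for EE minus ISO in control and from 3 to 5 in dTip60E431Q. The shares of all probe sets that passed in these fits are not given here, so the counts cannot be set against a background. Same-numbered arrays did not deviate together in all pairs of groups (correlations of -0.09 to 0.31), so the replicate numbers were not taken as pairs. With 2 arrays per group, 59 of 100 simulated 2-fold changes were called after adjustment, in a simulation with equal spread in all groups. The dimmer probe sets of Hr38 and kay and the probe set of Arc2 lie where probe signal is low.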
